A study of Mus musculus with 30 samples.

Results

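The 36 genes described here drive or brake the cell division cycle, and they were followed in liver and subcutaneous fat of mice whose growth hormone receptor had been changed or removed. They were listed by name and role, and a member is any probe of the bead array that the platform annotation gives to 1 of these genes. Of the 36 genes, 35 had a probe, with 74 probes of 46643 in all (the annotation names 19406 genes), and Ccnb1 was not analysed here. By role, 8 probes report 4 inhibitors of cyclin-dependent kinases, 21 report 7 cyclins and kinases of G1 and of the entry into S phase, and 13 report 8 genes of replication licensing and the replication clamp. A further 7 probes report 2 genes of nucleotide supply, 22 report the genes of G2 and mitosis, and 3 report the Gadd45 genes, 1 each.

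Cyclins activate cyclin-dependent kinases, D-type cyclins with Cdk4 early in G1 and E-type cyclins with Cdk2 at the entry into S phase. Inhibitors of the Cip/Kip family (Cdkn1a, Cdkn1b, Cdkn1c) and of the Ink4 family (Cdkn2c) hold these kinases back. Growth hormone signals through its receptor, the kinase JAK2 and the transcription factor STAT5, and most hepatocytes and fat cells of an adult animal do not divide.

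The mice were male, 4 months old and fasted overnight. In 569 and 391 mice the receptor was truncated at amino acid 569 or 391, in Box1 mice it was mutated in the Box1 segment next to the membrane, which binds JAK2, in KO mice it was removed, and wild-type (WT) mice were the controls. All mutants are described as transgenic knock-in animals, and their strain is not given in the sources used here. Each genotype had 3 arrays in each tissue, 30 arrays in all, and no label ties an array to an animal of its own. The p-values therefore measure array-to-array spread, part of which may be technical. The deposited value is the ratio of a probe to its median over the 15 arrays of the tissue. It holds no level, so different probes, or liver and fat, cannot be compared in level, and the tissue cannot be checked by the level of its markers. A probe is called changed where limma's moderated test gave an adjusted p (Benjamini-Hochberg over all 46643 probes) under 0.05, and differences are log2 of the ratio, mutant minus WT, ± SE.

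The 30 arrays lay on 5 slides of 6. The 569 and WT arrays of a tissue shared a slide, as did the 391 and KO arrays, and Box1 arrays, liver and fat, lay together on a slide of their own. The comparisons of 569 with WT and of KO with 391 are therefore within a slide. For 391, Box1 or KO against WT, slide and genotype cannot be told apart. Several arrays carried transcripts of other tissues. The median log2 ratio of 18 pancreas probes was 2.11 in both liver 391 replicates 2 and 3, and that of 12 skeletal muscle probes was 3.15 in liver 391 replicate 2. In fat, muscle markers stood at 4.21 and 4.72 in 569 replicates 1 and 3, at 4.30 in Box1 replicate 3 and at 3.58 in KO replicate 2, and in 569 replicate 3 the 5 adipocyte genes stood at −2.29 and the 4 endothelial genes at −1.51. The 6 hepatocyte probes stood at 4.29 in fat Box1 replicate 2 and at 2.03 in fat WT replicate 2. A probe of Ghr itself was at ratios of 0.3, 0.26 and 0.23 in the liver arrays labelled Box1, against 1.09, 0.92 and 1.27 in WT, and at 1.51, 1.09 and 1.26 in those labelled KO. The second Ghr probe read 1.15, 1.28 and 0.96 in Box1 livers and 1.4, 0.81 and 1 in KO livers, against 0.8, 0.61 and 1.14 in WT livers. In fat, the second probe read 0.46, 0.27 and 0.47 in 391 and 1.03, 0.68 and 1.26 in KO, against 1, 2.05 and 1.64 in WT. The first read 1, 0.5 and 0.95 in 391 fat and 1.12, 0.29 and 0.46 in KO fat, against 1.09, 1.97 and 1.47 in WT fat. Where these probes lie relative to the changed or deleted segment was not analysed here, so they do not settle the labels.

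In liver, the member probes called belonged to the inhibitors Cdkn1a, Cdkn1c and Cdkn2c, the G1 genes Ccnd1, Ccnd2 and Cdk2, and the nucleotide supply gene Tyms. Against WT, 0 member probes were called in 569, where 0.00858% of all probes were called, and 7 had an unadjusted p under 0.05, where 7.01% of all probes had. In 391, 4 were called (2 of Cdkn1a, 1 of Cdkn1c, 1 of Cdk2), where 1.91% of all probes were called. In Box1 and in KO the only member probe called was that of Cdkn1c, where 1.32% and 1.93% of all probes were called, so in these 2 mutants the members' share, 1.35%, was near that of all probes or under it. When the mean of 391, Box1 and KO was set against the mean of WT and 569, 9 probes of 6 genes were called, 12.2% of the members against 9.61% of all probes. In the F test over the 4 mutants, 6 were called, where 5.43% of all probes were called. The comparison of means sets arrays on some slides wholly against arrays on others, whereas the F test also holds 569, which shared a slide with WT.

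Cdkn1c, which encodes the Cip/Kip inhibitor p57, gave the clearest pattern. Its only probe stood at ratios of 0.63, 0.5 and 0.5 in 569 livers, of 1, 1.05 and 1.08 in 391 livers, of 0.95, 1.08 and 1.03 in Box1 livers and of 1.1, 1.14 and 1.44 in KO livers, against 0.62, 0.64 and 0.6 in WT livers. All 9 arrays of 391, Box1 and KO thus lay above all WT and 569 arrays, and the WT and 569 ranges overlapped. Cdkn1c rose by 0.75 ± 0.11 in 391 livers (limma, adjusted p = 0.00241), by 0.72 ± 0.11 in Box1 livers (0.00353) and by 0.97 ± 0.11 in KO livers (0.000178). In 569 livers its log2 difference was −0.20 ± 0.11 (adjusted p = 0.784). The rises in Box1 and KO kept their call in each refit, with limma's adjusted p up to 0.0257 and 0.0019. The rise in 391 kept its call in each refit that left out 1 array or changed the processing. Without both 391 arrays that hold pancreatic transcripts, 391 has 1 array, and a call there rests on the spread of the other genotypes. Over all refits the difference in 391 lay between 0.66 and 0.78. Within a slide, KO lay above 391 by 0.22 ± 0.11 with no overlap of the arrays, which did not pass the test (adjusted p = 0.639).

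Cdkn1a encodes p21, the Cip/Kip inhibitor that the tumour suppressor p53 and several stress signals induce. Its probe 6400706 read 2.31, 1 and 0.28 in 569 livers, 3.33, 6.33 and 1.85 in 391 livers, 1.65, 1.04 and 1.41 in Box1 livers and 0.32, 0.39 and 0.27 in KO livers, against 0.58, 0.51 and 0.27 in WT livers. The 391 arrays were all higher than any WT, Box1 or KO array, KO overlapped with WT, and the 3 arrays of 569 spread over the ranges of WT, KO, Box1 and 391. Cdkn1a rose in 391 livers by 2.98 ± 0.58 with this probe (limma, adjusted p = 0.0147) and by 2.91 ± 0.60 with probe 4050088 (0.0207). In Box1 livers the 2 probes were at 1.64 ± 0.58 and 1.59 ± 0.60 with no overlap with WT, and neither passed (adjusted p = 0.222 and 0.261). Between the 2 genotypes that shared a slide, KO was lower than 391 by −3.39 ± 0.58 with probe 6400706 (adjusted p = 0.029), and the other probe, at −3.09 ± 0.60, did not pass (0.0561). KO against 391 had 1 member probe called, where 0.18% of all probes were called.

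The calls of Cdkn1a depended on single arrays. The rise in 391 with probe 6400706 was lost without WT replicate 3 (2.64, adjusted p = 0.0787), and that with probe 4050088 without WT replicate 2 (0.0685), WT replicate 3 (0.0941), 391 replicate 1 (0.0584) or 391 replicate 2 (0.0644). Without the 391 replicates 2 and 3, which hold pancreatic transcripts, it was 2.95 and 2.91 with adjusted p of 0.0515 and 0.075. That fit leaves 391 with 1 array, which is assumed to vary like the arrays of the other genotypes. The difference of KO from 391 was lost in 5 of 6 refits without 1 array, the exception being 391 replicate 3, with adjusted p from 0.0546 to 0.142.

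The promoter of Cdkn1a is shown because this gene had the largest log2 difference of all members and because p53 induces it. The sequences, from RefSeq with build GRCm38.p6, are the 250 bases before each of its 2 annotated starts, both on the plus strand of chromosome 17, chr17:29090729-29090978 and chr17:29093519-29093768. Capitals mark 2 quartets CATG with any 6 bases between them, a core form of the p53 element, a motif chosen after the values were seen. It occurs in 0.49% of 32841 promoters of this length and in 1 of 33 of the members. The second window holds no letters of any motif searched here.
Cdkn1a, upstream start: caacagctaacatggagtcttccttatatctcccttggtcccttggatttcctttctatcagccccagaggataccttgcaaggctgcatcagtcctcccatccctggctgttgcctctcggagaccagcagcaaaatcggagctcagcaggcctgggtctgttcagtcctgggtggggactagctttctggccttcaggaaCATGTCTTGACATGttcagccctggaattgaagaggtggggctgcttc
Cdkn1a, downstream start: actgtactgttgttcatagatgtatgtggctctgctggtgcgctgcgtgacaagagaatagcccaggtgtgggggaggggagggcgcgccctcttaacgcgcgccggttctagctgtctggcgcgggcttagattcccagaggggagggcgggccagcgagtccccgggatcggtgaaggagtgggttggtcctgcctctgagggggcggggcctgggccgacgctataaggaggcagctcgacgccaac

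The other 2 inhibitors moved little. Cdkn2c, the Ink4 inhibitor p18, read 0.98, 0.77 and 0.95 with probe 5050750 in 569 livers, 1.12, 1.4 and 1.02 in 391 livers, 1, 1.19 and 1.24 in Box1 livers and 0.9, 1.05 and 1.07 in KO livers, against 0.81, 0.89 and 0.69 in WT livers. Each array of 391, Box1 and KO was above each WT array, although no single comparison of Cdkn2c with WT passed (0.56 ± 0.14 in 391, adjusted p = 0.0505). Cdkn2c was higher in the mean of 391, Box1 and KO than in the mean of WT and 569, by 0.39 ± 0.09 (limma, adjusted p = 0.011) and, with probe 5130148, by 0.28 ± 0.08 (0.0396). The first call stood in each refit, and the second was lost in 11 of the 15 refits that left out 1 array, with adjusted p up to 0.108, the exceptions being WT replicate 1, 569 replicate 1, 391 replicate 3 and KO replicate 2. It was lost with quantile normalization too (0.122). The remaining probe was at 0.09 ± 0.06 and did not pass. The 2 probes of Cdkn1b, the inhibitor p27, were at 0.03 and 0.05 in the same comparison, and their ratios lay between 0.84 and 1.26 in all liver arrays.

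**Figure D1:**
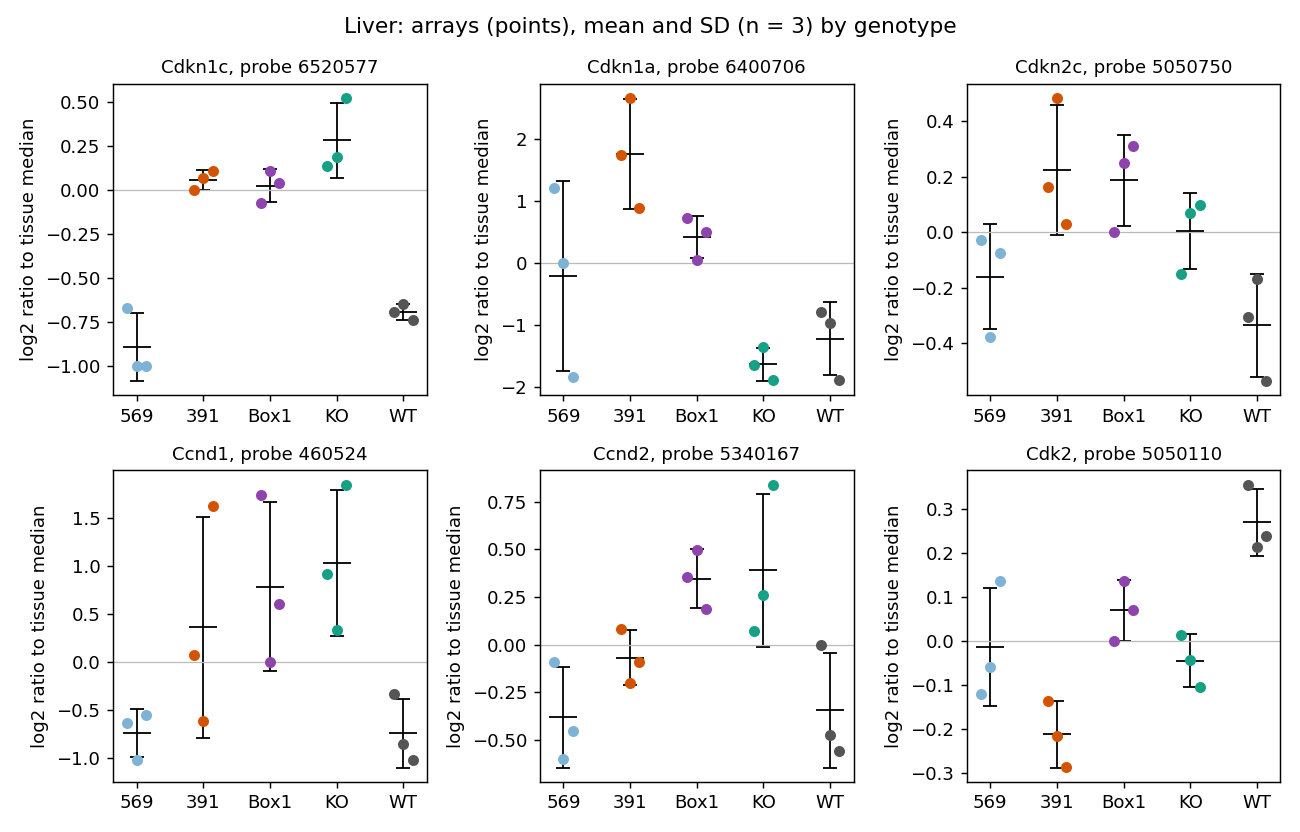
Log2 ratio to the tissue median (vertical axes) in liver by genotype, for 1 probe each of Cdkn1c, Cdkn1a, Cdkn2c, Ccnd1, Ccnd2 and Cdk2. Points are arrays, horizontal bars means and whiskers SD (n = 3), and Cdkn1c separates 391, Box1 and KO from 569 and WT without overlap.

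Among the G1 genes, probes of the D-type cyclins Ccnd1 and Ccnd2 were called higher, and 1 of Cdk2 lower, in the mean of 391, Box1 and KO than in the mean of WT and 569. Ccnd1 read 0.64, 0.49 and 0.68 with probe 460524 in 569 livers, 1.05, 0.65 and 3.09 in 391 livers, 3.33, 1 and 1.52 in Box1 livers and 1.88, 1.26 and 3.6 in KO livers, against 0.79, 0.55 and 0.49 in WT livers. All Box1 and KO arrays were above all WT arrays, 391 overlapped with WT, and the spread among arrays of a mutant was wide. The mean of 391, Box1 and KO exceeded the mean of WT and 569 by 1.47 ± 0.33 for Ccnd1 (limma, adjusted p = 0.00988) and by 1.26 ± 0.31 with probe 770309 (0.0151). Both calls stood in each refit. The remaining 2 probes of Ccnd1 were at 0.79 ± 0.25 (0.0623) and 0.32 ± 0.19 (0.396), and no probe of Ccnd1 passed against WT in 1 mutant alone, the nearest being KO at 1.77 ± 0.51 (adjusted p = 0.102).

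Ccnd2, the second D-type cyclin, read 0.94, 0.66 and 0.73 with probe 5340167 in 569 livers, 1.06, 0.87 and 0.94 in 391 livers, 1.28, 1.41 and 1.14 in Box1 livers and 1.05, 1.2 and 1.79 in KO livers, against 1, 0.72 and 0.68 in WT livers. Box1 and KO lay above WT in every array, and 391 overlapped with WT. Over the mean of WT and 569, the mean of 391, Box1 and KO was higher by 0.59 ± 0.12 (limma, adjusted p = 0.00653), which stood in each refit, and by 0.22 ± 0.06 with probe 102350114 (0.0243). The second call of Ccnd2 was lost without WT replicate 1 (0.0566), WT replicate 3 (0.0508) or 569 replicate 1 (0.0604), without both 391 arrays with pancreatic transcripts (0.111) and with quantile normalization (0.0836). The other 2 probes of Ccnd2 were at 0.36 ± 0.12 and −0.13 ± 0.05 and did not pass (0.0781 and 0.0939), so the probes of this gene did not share 1 direction.

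Cdk2, the kinase of the E-type cyclins, was the only member called lower against WT or in the comparison of means. Its probe 5050110 read 0.92, 0.96 and 1.1 in 569 livers, 0.91, 0.86 and 0.82 in 391 livers, 1, 1.1 and 1.05 in Box1 livers and 1.01, 0.97 and 0.93 in KO livers, against 1.28, 1.16 and 1.18 in WT livers. WT was the highest genotype with no overlap with any mutant, and 391 the lowest. Cdk2 fell by 0.48 ± 0.08 in 391 livers on the log2 scale (−0.48, limma, adjusted p = 0.00711), and the call was lost without both 391 arrays with pancreatic transcripts (−0.41, adjusted p = 0.11) and in the fit of 391 and WT alone (−0.48, 0.0668). On the slide that 569 and WT shared, the 4 probes of Cdk2 were at −0.64 ± 0.14, −0.42 ± 0.13, −0.28 ± 0.08 and −0.15 ± 0.11 in 569 livers, with adjusted p from 0.244 to 0.868. In 391 livers, 2 other probes of Cdk2 were at −0.59 ± 0.14 (adjusted p = 0.051) and −0.44 ± 0.13 (0.104) with no overlap with WT, and the remaining probe was at −0.04 ± 0.11. Against the mean of WT and 569 the fall of Cdk2 was −0.19 ± 0.05 (adjusted p = 0.0353). This call was lost without any 1 of 10 of the 15 arrays (WT replicates 1 to 3, 569 replicates 2 and 3, 391 replicate 3, Box1 replicates 1 and 3, KO replicates 2 and 3), with adjusted p up to 0.104. Ccnd3, Ccne1, Ccne2 and Cdk4, the other G1 members, had no probe called in liver.

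The promoter of Cdk2 is shown as that of the only member called lower against WT (chr10:128705052-128705301, minus strand, 250 bases before its start, RefSeq with build GRCm38.p6). Capitals mark, in this order, an E2F octamer read on the opposite strand and the NF-Y pentamer CCAAT. E2F factors drive genes of S phase, and the octamers searched on both strands were TTTCGCGC, TTTGGCGC, TTTCCCGC and TTTGCCGC. Any of them occurs in 1.86% of all promoters and in 6 of 33 of the members (Cdk2, Cdc6, Mcm5, Mcm6, Mcm7 and Cdk1). CCAAT occurs in 33.9% of all promoters and in 23 of the 33.
Cdk2: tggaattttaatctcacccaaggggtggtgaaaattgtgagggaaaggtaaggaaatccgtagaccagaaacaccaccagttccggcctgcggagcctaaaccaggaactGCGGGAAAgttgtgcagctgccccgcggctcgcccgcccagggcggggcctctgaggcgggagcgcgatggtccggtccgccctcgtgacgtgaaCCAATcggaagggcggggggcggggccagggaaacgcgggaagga

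Promoters were on hand for 29 of the 36 genes, and Cdkn1c, Ccnd1, Ccnd2, Ccne2, Mcm4, Ccna2 and Aurkb had none in the table used. The STAT motif TTCNNNGAA occurs in 7.02% of all promoters and in 1 of 33 of the members, that of Mcm5. The forkhead motif TGTTTAC occurs in 3.17% of all promoters and in that of Ccnd3 among the members. A match is a description of letters, and no match says only that these letters are not in the window.

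Probes for the machinery of S phase and mitosis had a median spread in liver slightly above that of all probes. Signal over background is unknown, so a flat ratio here does not give the extent of cell division. The SD of the log2 ratio over the 15 liver arrays had a median of 0.158 over the 13 probes of replication licensing and clamp and of 0.146 over the 22 probes of G2 and mitosis, against 0.136 over all probes. Mki67, the proliferation antigen, read between 0.83 and 1.06 with probe 7050288 in the mutant livers, against 1.02 in all 3 WT livers. This probe varied least of the 3 (SD 0.112, against 0.142 and 0.117). Probe 3440750 lay above WT in every Box1 liver array, at 0.205, without a call. With limma, Mki67 had a probe higher at an unadjusted p under 0.05 in 569 and in Box1 livers, where 1.73% and 9.45% of all probes had. Pcna, the replication clamp, read 0.87 to 1.1 in the mutants, against 0.82 to 1 in WT. The licensing factors Cdc6 and Mcm2 to Mcm7 and Pcna together lay between −0.230 and 0.511 in the 4 mutants against WT. The mitotic kinases and their partners (Cdk1, Ccna2, Ccnb2, Aurka, Aurkb, Plk1 and Bub1), the anaphase activator Cdc20, Mki67, Top2a and Birc5 lay between −0.382 and 0.269. The genes of both roles had 0 probes called in each liver comparison. Of the nucleotide supply genes, Rrm2, a subunit of ribonucleotide reductase, had no call, and Tyms, thymidylate synthase, was called at 1 of its 4 probes. Probe 5570546 read 0.65, 0.8 and 0.91 in 569 livers, 1, 1.14 and 0.8 in 391 livers, 1.05, 1.05 and 1 in Box1 livers and 1.01, 1 and 1.31 in KO livers, against 0.91, 0.88 and 0.76 in WT livers. Tyms was higher by 0.35 ± 0.09 in the mean of 391, Box1 and KO than in the mean of WT and 569 (limma, adjusted p = 0.0288), and its other 3 probes lay between −0.01 and 0.13. That call was lost without WT replicate 2 (0.0539), WT replicate 3 (0.0897), 569 replicate 1 (0.0763), 569 replicate 2 (0.0597) or Box1 replicate 2 (0.0527), and with quantile normalization (0.0893).

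The Gadd45 genes, which respond to DNA damage and other stress and restrain the cycle, varied more between arrays than most probes. Over the 15 liver arrays the SD of Gadd45g was 1.22, at percentile 99.8 of all probes, and those of Cdkn1a were 1.39 and 1.45, at percentile 99.9. Gadd45g read 5, 1.15 and 0.45 in 569 livers, 5.98, 3.17 and 0.56 in 391 livers, 2.23, 0.91 and 1 in Box1 livers and 0.53, 0.56 and 0.5 in KO livers, against 1.74, 1 and 1.94 in WT livers. KO was below WT in every array, at −1.50 ± 0.79, which did not pass (limma, adjusted p = 0.468), and 569 and 391 spread widely. Gadd45a read 3.13, 0.88 and 2.01 in 391 livers, against 1.02, 0.84 and 0.97 in WT livers (0.91 ± 0.41, adjusted p = 0.367). Gadd45b read 1.72, 1.47 and 1.12 in Box1 livers, against 0.9, 0.81 and 0.96 in WT livers, a difference of 0.67 ± 0.19 that did not pass (0.107).

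**Figure D2:**
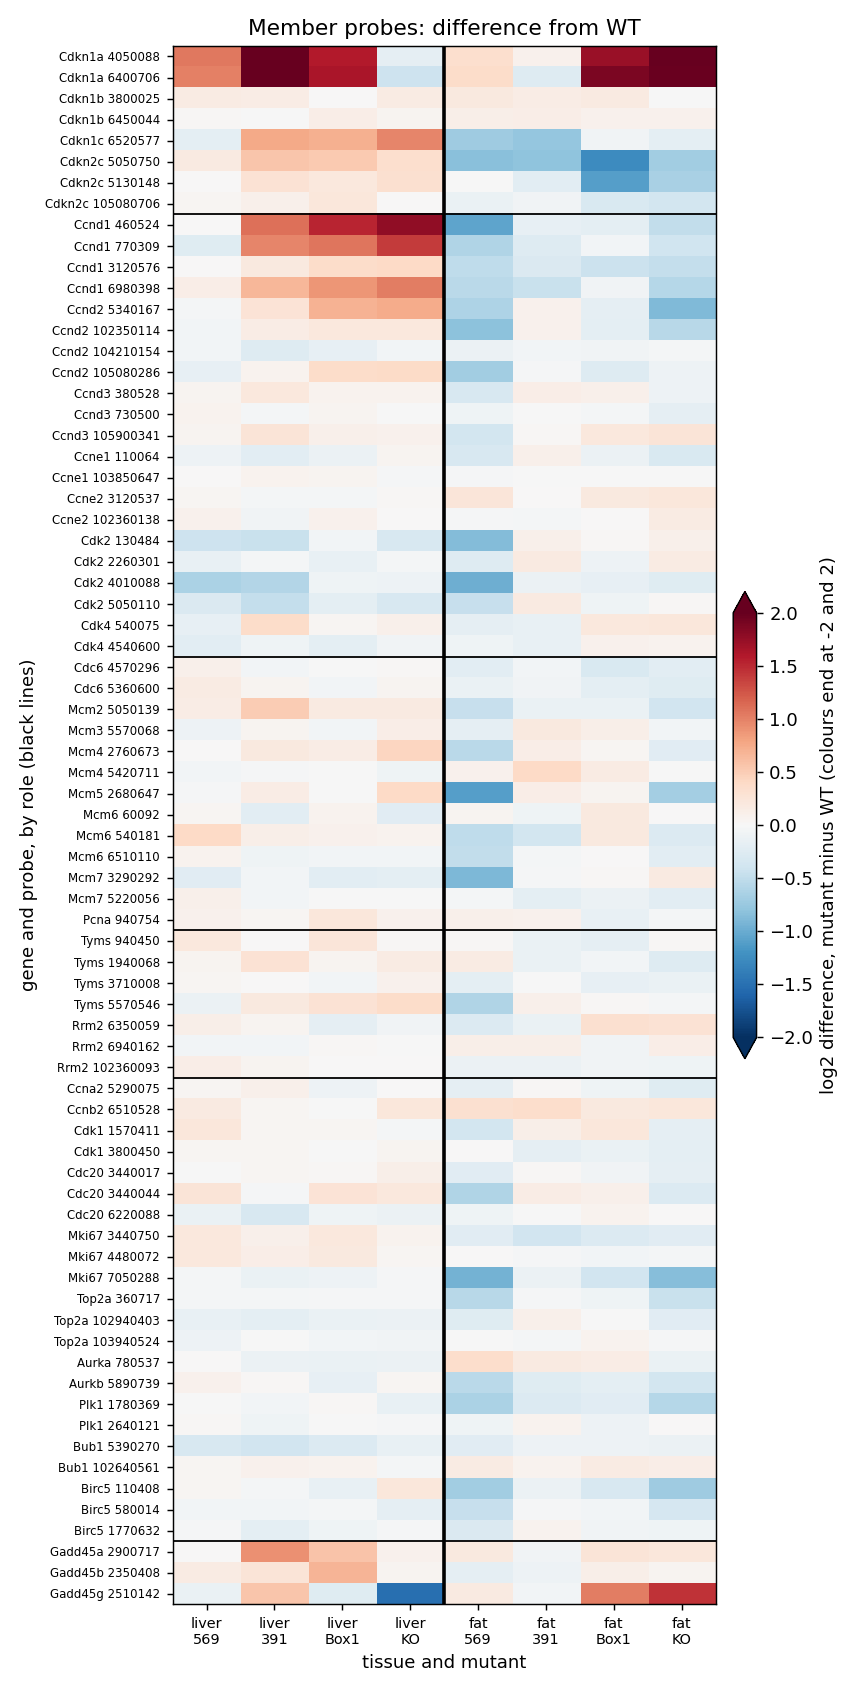
Fitted log2 difference from WT (colour, red higher in the mutant and blue lower, ending at −2 and 2) for the 74 member probes in rows, grouped by role, and the 4 mutants in liver and then fat in columns. Colour in liver gathers in the inhibitors, the D-type cyclins, Cdk2 and the Gadd45 genes, while the 569 column of fat is blue in most rows.

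A longer list of 79 other cell cycle genes, of which 73 had probes (140 in all), was read beside the members. In liver, 4 of the 140 probes were called in 391 (1 higher, 3 lower), 1 in Box1 (lower), 4 in KO (3 higher, 1 lower) and 0 in 569, and 10 were called for the mean of 391, Box1 and KO against the mean of WT and 569 (5 higher, 5 lower). These are 2.86%, 0.714%, 2.86%, 0% and 7.14% of the list, beside 1.91%, 1.32%, 1.93%, 0.00858% and 9.61% of all probes, so the shares in Box1 and in the mean comparison were under that of all probes. Mcm10, which helps to start replication forks, fell with 1 of its 3 probes, by 1.59 ± 0.20 in 391 livers (−1.59, limma, adjusted p = 0.000618) and by 1.50 ± 0.20 in Box1 livers (−1.50, 0.00112). Its ratios were 0.74, 0.49 and 0.5 in 391 and 0.83, 0.62 and 0.42 in Box1, against 1.53, 1.6 and 2.01 in WT. KO livers stood at 1, 0.96 and 1.03, below all WT arrays, and were not called (−0.77, limma, adjusted p = 0.0648). This probe was called lower in the mean of 391, Box1 and KO than in the mean of WT and 569 (−1.16 ± 0.13, limma, adjusted p = 6.21e-05). The other 2 probes of Mcm10 were at 0.06 and −0.07 in 391 and at 0.03 and 0.07 in Box1 and were not called, so its probes disagree.

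Pttg1, securin, which holds back the separation of sister chromatids until anaphase, fell in KO livers by 1.50 ± 0.15 (−1.50, limma, adjusted p = 6.56e-05), at ratios of 0.38, 0.39 and 0.38, against 1.43, 0.85 and 1.05 in WT livers. On the shared slide Pttg1 was lower in KO than in 391 livers by −1.42 ± 0.15 (0.000866). In fat it fell in 391 instead, by 1.83 ± 0.16 (−1.83, adjusted p = 0.00446), at 0.35, 0.31 and 0.28, against 1.17, 1.34 and 0.87 in WT fat. The difference of KO from WT changed between tissues (liver minus fat −1.34 ± 0.24, limma, adjusted p = 0.00767), as did that of 391 (1.75 ± 0.24, 0.000286). Pttg1 read 1, 1.07 and 1.01 in 391 livers and 0.94, 1.04 and 1 in KO fat. Whether the 391 and KO labels are right in both tissues was not tested.

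Sesn1, a p53 target that restrains growth signalling, rose by 0.71 ± 0.14 in 391 livers (limma, adjusted p = 0.017) and by 0.60 ± 0.14 in KO livers (0.0416). It read 1.14, 1.36 and 1.2 in 391 and 1.15, 1.18 and 1.08 in KO, against 0.93, 0.68 and 0.67 in WT. Rbl2, the pocket protein p130 of resting cells, rose with 1 of its 2 probes by 0.71 ± 0.12 in KO livers (adjusted p = 0.00568), at 1.29, 1.52 and 1.23, against 1, 0.78 and 0.7 in WT, and its other probe was at 0.18 (0.695). Of the other p53 targets in the list, 2 were called lower in 391 livers. With limma, Plk2 fell by 0.58 ± 0.12 (−0.58, adjusted p = 0.0224) and Btg2 by 0.44 ± 0.10 (−0.44, 0.0379). In 391 livers Mdm2 (0.13 and −0.08), Ccng1 (0.05 to 0.18) and Zmat3 (0.24) were not called. In 569, Box1 and KO livers, Plk2 was at −0.50, −0.47 and −0.31 and Btg2 at −0.22, −0.19 and −0.20, without a call. For Plk2 every WT array was above every mutant array, so its lower values were not particular to 391. Trp53inp1, another target, was at 1.26 in 391 livers and was not called there (limma, adjusted p = 0.252). Its ratios were 3.13, 1.24 and 0.66, against 0.62, 0.49 and 0.62 in WT. It was called higher in the mean of 391, Box1 and KO than in the mean of WT and 569 (1.03 ± 0.30, 0.0444). Orc6, a subunit of the origin recognition complex, was higher by 0.23 ± 0.05 in the mean of 391, Box1 and KO than in the mean of WT and 569 (0.00724).

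In fat, limma called 0 member probes in any comparison. All probes were called at 0% in 569 and in KO, at 0.0129% in 391 and at 0.00214% in Box1 against WT, at 0.0172% in KO against 391, and at 0.0193% for the mean of 391, Box1 and KO against the mean of WT and 569, so few calls were made among any probes. At an unadjusted p under 0.05 the member probes numbered 17 in 569, 4 in 391, 5 in Box1 and 9 in KO against WT, where 8.96%, 4.58%, 4.54% and 6.24% of all probes passed. They numbered 9 in KO against 391 (6.7% of all probes), 9 for the mean of 391, Box1 and KO (9.11%) and 9 in the F test (7.55%), in which 0.015% of all probes were called. The values below are therefore given as ratios per array.

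Cdkn1a read 1.52, 1 and 0.18 with probe 6400706 in 569 fat, 0.45, 0.59 and 0.28 in 391 fat, 4.12, 1.16 and 1.33 in Box1 fat and 2.69, 2.04 and 1.4 in KO fat, against 0.54, 0.57 and 0.41 in WT fat. All Box1 and KO arrays were above all WT arrays, 391 overlapped with WT, and 569 spread from the lowest value of all to above WT. The difference of KO from WT was 1.98 ± 0.68 for Cdkn1a (limma, adjusted p = 0.673) and 2.15 ± 0.65 with probe 4050088 (0.577). KO, the genotype with no rise of Cdkn1a in liver, thus had its arrays above WT in fat. The difference of this contrast between liver and fat was −2.39 ± 0.97 (adjusted p = 0.466), and that of 391 was 3.23 ± 0.97 (0.282). Neither passed, so a difference between tissues was not shown for either mutant.

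Gadd45g read 2.05, 1.45 and 0.28 in 569 fat, 0.68, 0.74 and 1 in 391 fat, 4.07, 0.94 and 1.23 in Box1 fat and 2.24, 3.55 and 1.43 in KO fat, against 0.88, 0.77 and 0.84 in WT fat. Box1 and KO were again above WT in every array, at 1.02 ± 0.67 (limma, adjusted p = 1) and 1.44 ± 0.67 (0.805).

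**Figure D3:**
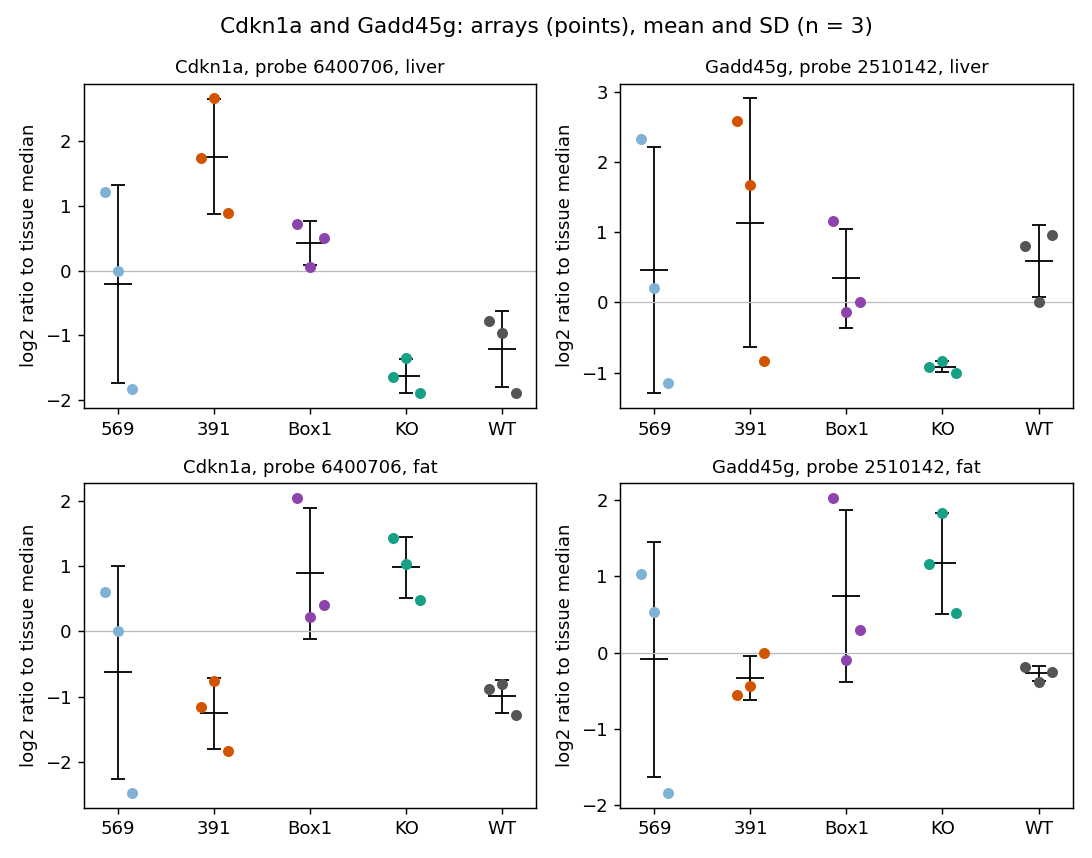
Log2 ratio to the tissue median (vertical axes) of Cdkn1a and Gadd45g by genotype, in liver (upper panels) and fat (lower panels). Points are arrays, bars means and whiskers SD (n = 3). The Cdkn1a arrays lie above WT in 391 livers and in KO fat, and overlap with WT in 391 fat and in KO livers. No difference from WT passed the test in fat.

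Cdkn1c, the inhibitor that separated the genotypes in liver, did not do so in fat. It read 0.99, 1 and 0.43 in 569 fat, 1.05, 0.45 and 0.79 in 391 fat, 1.05, 0.96 and 1.57 in Box1 fat and 0.76, 1.22 and 1.35 in KO fat, against 0.78, 1.92 and 1.24 in WT fat. All genotypes overlapped, with an SD over the 15 arrays of 0.59, against 0.49 in liver. The differences between the tissues were 1.52 ± 0.45 for 391 (limma, adjusted p = 0.282), 0.79 ± 0.45 for Box1 (0.934) and 1.16 ± 0.45 for KO (0.439), and none passed.

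Cdkn2c had the smallest p of the F test over the mutants among the members in fat, with an adjusted p of 0.456. Its probe 5130148 read 1.45, 1.8 and 0.83 in 569 fat, 1.16, 1.32 and 0.92 in 391 fat, 0.6, 0.67 and 0.56 in Box1 fat and 0.71, 1 and 0.82 in KO fat, against 1.5, 1.15 and 1.28 in WT fat. Box1 and KO were below WT in every array, with differences for Cdkn2c of −1.10 ± 0.24 (limma, adjusted p = 0.85) and −0.64 ± 0.24 (0.707), while the same mutants were above WT in liver. Ccnd1 with probe 3120576 was below WT in every array of 569 (1.05, 0.86 and 0.74), Box1 (1.07, 0.9 and 0.81) and KO (0.8, 0.89 and 1), where WT fat read 1.19, 1.13 and 1.41. For Ccnd1 these differences were −0.50 ± 0.15, −0.43 ± 0.15 and −0.47 ± 0.15, with adjusted p of 0.552, 1 and 0.624.

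Most member probes had a negative fitted difference in 569 fat against WT fat, and replicate 3 of 569 carried much of its size. Over the 3 arrays their median log2 difference was −0.216 and 18 of the 74 probes were above 0, beside a median of −0.00979 over all probes. Without replicate 3, a choice made after seeing the data, the median was −0.069 with 22 above 0. The medians without it were −0.207 over the G1 probes, −0.0448 over the replication probes and −0.226 over those of G2 and mitosis, so the last role alone kept its size. Over all 3 arrays, the range of the replication genes in 569 fat was −1.10 to 0.0982, and over G2 and mitosis −0.942 to 0.345. The 21 probes of the G1 genes had a median of −0.369 with 1 above 0, the 13 replication probes −0.213 with 3 above 0 and the 22 probes of G2 and mitosis −0.222 with 5 above 0. In KO fat the median of the members was −0.121 with 23 above 0, beside 0.0123 over all probes. In 391 and Box1 fat it was −0.0286 and −0.0545, and in liver it lay between 0.0167 and 0.0427 in the 4 mutants. These are descriptions of the fitted values, with no test of the list.

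The fat arrays also differed in their content of lymphocyte transcripts. The median log2 ratio of 13 probes of 10 B and T cell genes was −2.84, −2.94 and −2.74 in 569 fat, 0.63, 0.37 and 0 in 391 fat, 0.29, 0.50 and −2.56 in Box1 fat and 0.45, −2.56 and −2.12 in KO fat, against 0.70, −1.84 and 0.45 in WT fat. Cd79a, a part of the B cell receptor, read 0.07, 0.07 and 0.06 in 569, 1.46, 1.44 and 1 in 391, 1.45, 2.23 and 0.07 in Box1 and 2.02, 0.09 and 0.21 in KO, against 2.05, 0.08 and 1.37 in WT. All 3 arrays of 569 and none of 391 were low, and Box1, KO and WT each held both kinds.

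Mcm5, a subunit of the replicative helicase, read 0.82, 0.46 and 0.25 in 569 fat, 1.1, 1.13 and 1 in 391 fat, 1.25, 1.92 and 0.44 in Box1 fat and 1.16, 0.44 and 0.44 in KO fat, against 1.4, 0.56 and 1.19 in WT fat. The arrays that were low in Cd79a within Box1, KO and WT were those low in Mcm5. Mki67 with probe 7050288 read 0.83, 0.66 and 0.52 in 569, 1.26, 1.1 and 1.16 in 391, 0.97, 1.6 and 0.59 in Box1 and 1.21, 0.47 and 0.6 in KO, against 1.53, 1 and 1.32 in WT. Top2a, the topoisomerase that untangles chromosomes, read 0.98, 0.74 and 0.62 with probe 360717 in 569, 1.26, 1.1 and 1 in 391, 1.07, 1.64 and 0.69 in Box1 and 1.05, 0.58 and 0.93 in KO, against 1.28, 0.88 and 1.28 in WT. Within Box1, KO and WT, each array low in Cd79a was lower in Mki67 and in Top2a than each array of its genotype that was not. Birc5 (survivin, probe 110408) followed the same order, at 0.96, 1.43 and 0.66 in Box1 and 1.05, 0.56 and 0.68 in KO, against 1.37, 1 and 1.27 in WT.

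The arrays low in Cd79a also differed in other tissue transcripts. Muscle markers stood at 4.30 in Box1 replicate 3, against −2.60 and −2.45 in replicates 1 and 2. In KO they stood at 3.58 and 1.28 in replicates 2 and 3, against −0.67. In 569 replicate 2, low in Cd79a, they stood at −3.06. Hepatocyte markers stood at 2.03 in WT replicate 2, but also at 4.29 in Box1 replicate 2, which was not low in Cd79a. The part of the lymphocyte or other tissue transcripts in the lower values of 569 and KO fat was not tested. Fewer cells of a type and less RNA per cell cannot be told apart in whole tissue. The differences of 569 from WT were −1.10 ± 0.58 for Mcm5 (limma, adjusted p = 0.595), −0.94 ± 0.37 for Mki67 (0.552), −0.56 ± 0.31 for Top2a (0.601) and −0.69 ± 0.27 for Birc5 (0.552). Not all probes of a gene did this: the other 2 probes of Mki67 lay between 0.8 and 1.31 in all fat arrays. The other probes of Top2a had SDs of 0.209 and 0.0942 over the fat arrays, against 0.422 for the probe shown. Those of Birc5 had SDs of 0.298 and 0.241, against 0.423. How many member probes, or how many of all probes, keep the order of the arrays low in Cd79a was not counted. Pcna, with an SD of 0.131 in fat against 0.136 in liver, read between 0.86 and 1.21 in the mutants and between 0.93 and 1.11 in WT.

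**Figure D4:**
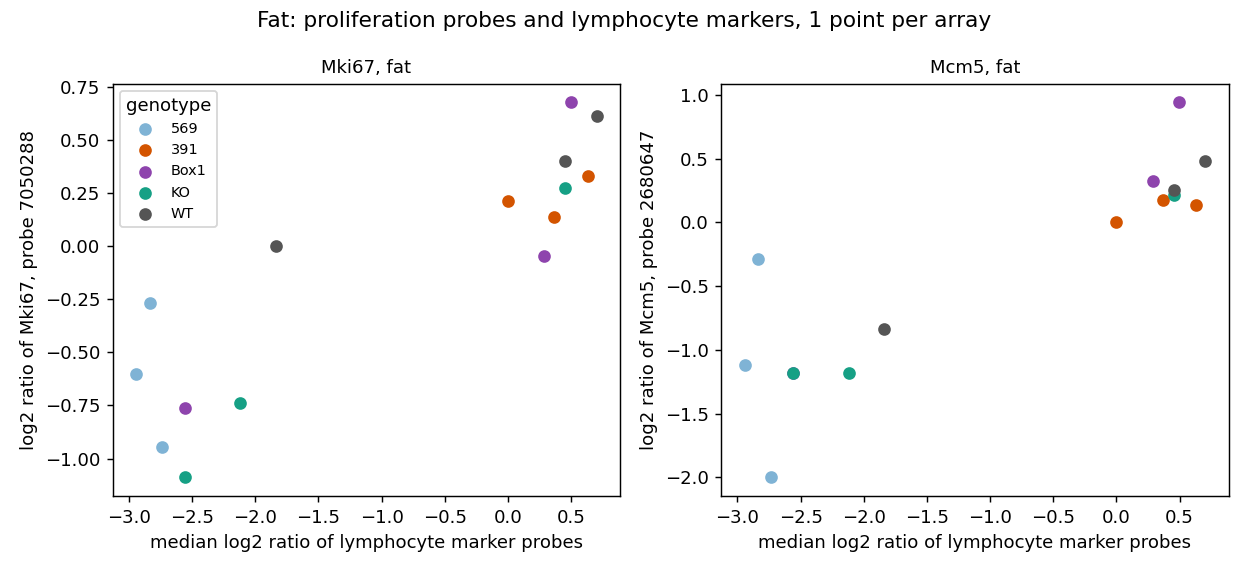
Log2 ratio of Mki67 (left) and Mcm5 (right) in each fat array (vertical axes) against the median log2 ratio of 13 lymphocyte marker probes (horizontal axes), coloured by genotype. The 569 arrays stand at the left at marker values of −2.94 to −2.74, and Box1, KO and WT each have arrays on both sides; Box1 replicate 3 and KO replicate 2 coincide in the right panel.

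In 569 fat, replicate 3 stood apart within its genotype. Cdk2 with probe 4010088 read 0.99, 0.86 and 0.2 in 569 fat, 1.01, 1.03 and 1 in 391 fat, 1.05, 1.26 and 0.71 in Box1 fat and 1.08, 0.87 and 0.86 in KO fat, against 1.15, 1.26 and 0.91 in WT fat. Mcm7, another helicase subunit, read 0.81, 0.73 and 0.28 with probe 3290292 in 569, 1.1, 0.97 and 0.96 in 391, 1.26, 1.19 and 0.75 in Box1 and 1.2, 1.02 and 1.26 in KO, against 1.08, 1 and 0.98 in WT. Mcm4 read 1.17, 0.75 and 0.33 with probe 2760673 in 569, against 1.08, 0.82 and 1 in WT, and its probe 5420711 read 1.21, 1.29 and 1.21 in 391, above 0.93, 0.97 and 0.92 in WT (0.40 ± 0.12, limma, adjusted p = 0.95). In 569 replicate 3 the adipocyte markers were low and the muscle markers high, as given above, and their part in these values was not tested. Without this array, 1 member probe was called in fat in the F test over the mutants. The mean of 391, Box1 and KO against the mean of WT and 569 had 1 too. Over the 15 refits that each left out 1 fat array, the F test called 2 to 93 of all 46643 probes. The comparison of means called 2 to 121 of them.

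The promoters of Mcm5, Mki67 and Top2a are shown because the probes given above for these genes were low in the same fat arrays within Box1, KO and WT. Each window is the 250 bases before the start (RefSeq, build GRCm38.p6): chr8:75109259-75109508 on the plus strand for Mcm5, chr7:135716380-135716629 on the minus strand for Mki67 and chr11:99024190-99024439 on the minus strand for Top2a. Capitals mark matches on either strand to CCAAT, to the cell cycle homology region TTTGAA, to the E2F octamers and, near the beginning of the Mcm5 window, to the STAT motif. In Mcm5 the octamer TTTCGCGC overlaps with a match to TTTGGCGC on the opposite strand.
Mcm5: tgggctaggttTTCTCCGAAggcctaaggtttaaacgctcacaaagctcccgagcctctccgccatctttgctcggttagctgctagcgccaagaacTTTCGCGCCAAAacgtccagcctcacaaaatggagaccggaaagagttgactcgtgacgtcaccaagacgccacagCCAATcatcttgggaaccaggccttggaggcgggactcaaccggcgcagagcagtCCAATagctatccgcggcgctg
Mki67: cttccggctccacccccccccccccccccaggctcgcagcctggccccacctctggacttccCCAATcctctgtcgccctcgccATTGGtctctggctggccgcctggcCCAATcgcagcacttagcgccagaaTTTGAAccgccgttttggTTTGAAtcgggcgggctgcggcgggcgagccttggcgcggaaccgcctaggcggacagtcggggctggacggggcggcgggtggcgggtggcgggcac
Top2a: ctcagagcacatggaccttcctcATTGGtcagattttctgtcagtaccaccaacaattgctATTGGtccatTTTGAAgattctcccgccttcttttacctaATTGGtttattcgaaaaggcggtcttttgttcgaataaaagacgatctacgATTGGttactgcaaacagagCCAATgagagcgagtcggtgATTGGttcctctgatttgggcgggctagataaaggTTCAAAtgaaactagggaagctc

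The homology region TTTGAA occurs in 16% of all promoters, in 6 of 33 of the members and in 5 of 10 of the promoters of G2 and mitosis genes (Ccnb2, Cdk1, Cdc20, Mki67 and Top2a). CCAAT occurs in 9 of those 10, and E2F octamers in 4 of the 8 promoters of replication genes.

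With limma, 0 member probes passed the test of a difference between liver and fat in any mutant. All probes passed at 0% for 569, 0.227% for 391, 0.148% for Box1 and 0.341% for KO, and 7, 8, 9 and 13 member probes had an unadjusted p under 0.05, where 7.75%, 7.17%, 5.56% and 8.52% of all probes had. The member probe nearest to a call was Cdkn2c with probe 5130148 in Box1, at 1.32 ± 0.28 (limma, adjusted p = 0.0696).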

How the data were processed

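Per the labels' protocols, column-purified RNA of frozen liver and fat was biotin-labelled for Illumina bead arrays. The authors deposited a ratio per probe and array. It is the probe divided by its median over the 15 arrays of the tissue, read from the values, since that median was 1 for all 46643 probes in both tissues. The sources used here do not give background correction, normalization or software, and signal over background is unknown. The 3 arrays per group limit the precision. No 2 arrays were alike (at most 3.66% of probes with equal ratios).

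Probes were named by the platform annotation (32794 with 1 symbol, 19406 genes). Log2 ratios were fitted with limma 3.58.1 in R 4.3.3 (lmFit, eBayes, two-sided), per tissue over its 5 genotypes, and over the 30 arrays together for liver minus fat. P-values were adjusted over all probes, and the fits were checked on simulated data. Members, lists and tests were chosen with earlier results of these data known. Members with a call in liver, and the 6 with the smallest F test p per tissue, are given array by array, as are up to 6 called genes of the longer list. Members shown for their pattern over the fat arrays, the Gadd45 genes, Mki67, Pcna, Cdkn1b and the p53 targets beside Sesn1 were chosen after their values were seen. Alternatives were quantile normalization, array weights, 1 probe per gene, an offset of 0.1, a filter on ratios of 0.05 or less, fits of the compared groups alone, and leaving out arrays. Promoters are RefSeq sequences of build GRCm38.p6.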

Additional observations from a re-analysis of the deposited data

Results flagged for a closer look

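Some differences from WT pointed one way in every liver array of a mutant and the opposite way in every fat array, and are given here as liver minus fat (log2, limma's interaction). None passed that test. The cases were picked for this pattern from the 74 member probes in each mutant. How many of all probes show the same pattern was not counted, so the list does not set the members apart from the rest of the array. For Cdkn2c in Box1 it was 1.79 with probe 5050750 (0.523 in liver, −1.26 in fat, adjusted p = 0.666) and 1.32 with probe 5130148 (0.218 and −1.10, 0.0696). For Cdkn2c in KO it was 0.967 with probe 5130148 (0.326 and −0.641, 0.199). For Ccnd1 in KO it was 2.27 with probe 460524 (1.77 and −0.491, 0.276) and 1.6 with probe 6980398 (1.03 and −0.566, 0.222). For Ccnd2 in KO it was 1.62 with probe 5340167 (0.735 and −0.888, 0.376). For Mki67 in Box1 it was 0.476 with probe 3440750 (0.205 and −0.271, 0.674). For Gadd45g in KO it was −2.94 (−1.50 in liver and 1.44 in fat, adjusted p = 0.434), the only one of these with the mutant lower in liver.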

How the results depend on the processing

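Counts are member probes called unless all probes are named. With quantile normalization there were 7 in liver 391 against WT, 2 in liver KO against WT and 2 in liver KO against 391. Of all 46643 probes, 830, 1071 and 126 were called in these comparisons, against 890, 899 and 84 in the main fit. For liver minus fat there were 1 (391), 1 (Box1) and 2 (KO). There, 155, 95 and 431 of all probes were called, against 106, 69 and 159 in the main fit. Array weights gave 2 in liver Box1 and 2 in liver KO, with 974 and 1184 of all probes, against 616 and 899 in the main fit. They gave 1 in fat for the mean of 391, Box1 and KO against the mean of WT and 569. For liver minus fat they gave 1 (Box1) and 3 (KO). With 1 probe per gene there were 2 in liver 391 and 4 for the liver mean comparison, since fewer probes were counted. Fits of the compared groups alone gave 5 in liver Box1, 3 in liver KO, 2 in liver KO against 391 and 1 in fat KO against 391. Without both liver 391 arrays with pancreatic transcripts there were 2 in 391 and 0 in KO against 391, and, chosen after seeing the data, 3 in Box1 and 2 in KO. Where calls among all probes are not given, the counts are not set against the array. The causes were not tested.

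Leaving out 1 array gave 2 (without WT replicate 3) to 7 (without 391 replicate 3) in liver 391, 1 to 2 in liver Box1 (2 without WT replicate 1), and 1 to 2 in liver KO (2 without WT replicate 1 or KO replicate 1). Among all probes, 379 to 980, 251 to 984 and 406 to 873 were called in these comparisons. Liver KO against 391 had 0 to 2, with 0 without 391 replicate 1 or 2 or any KO array, where 27 to 271 of all probes were called. The liver mean comparison had 5 (without WT replicate 3) to 10, and the liver F test 4 (without WT replicate 3) to 10 (without 391 replicate 3). Of all probes, 3086 to 4970 and 1297 to 3150 were called there. In fat, the mean comparison and the F test each had 0 to 1, with 1 without 569 replicate 3. Of all probes, 2 to 121 and 2 to 93 were called in these refits. Of 273 refits of 16 called results, 224 kept the call, 49 lost it and 0 reversed. An offset of 0.1 and a filter on ratios of 0.05 or less moved no count by over 1.5 times. No paired analysis was possible because the labels carry no replicate numbers.

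The ratios hold no signal level, so probes near background cannot be told from the rest. Slide and genotype cannot be told apart in the comparisons of 391, Box1 or KO with WT.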
